A study of Mus musculus with 42 samples.

Results

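The genes described here are 42 mouse interferon-stimulated genes, measured in thymic epithelial cells with and without the transcriptional cofactor Ski. They were taken by name from a list that covers transcription factors, the ISG15 system, the IFIT, OAS and Mx families, nucleic acid sensors, restriction factors, guanylate-binding proteins and immunity-related GTPases. All 42 were found among the 53465 genes of the count table. All 42 also passed the filter on low counts, which kept 23040 genes for testing, so no member was lost before the tests.

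The study compared cortical and medullary thymic epithelial cells (cTEC and mTEC), which guide the development and selection of T cells, after deletion of Ski in thymic epithelium. Each library came from 200 sorted cells that carried the epithelial marker Epcam and lacked the blood cell marker CD45. The cTEC gate was negative for the lectin UEA and positive for Ly51. The mTEC gates were positive for UEA and low for Ly51, and were split into MHCII-low and MHCII-high cells. The labels name 3 genotypes, which are Control, KO and Ski flox Control. They give no age, strain or Cre driver, and they do not say how the Control and the Ski flox Control animals differ. Of 42 libraries, 40 were used. These were 5 cTEC, 4 MHCII-low and 4 MHCII-high Control libraries, 7 KO libraries of each subset and 2 Ski flox Control libraries of each subset. Nothing in the labels says which libraries came from separate animals, so p-values measure only the spread between these libraries. Replicates are numbered in deposition order.

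Interferons are secreted proteins that bind receptors on nearby cells. Type I and type III interferons signal through JAK kinases to a complex that holds STAT2 and IRF9 and binds interferon-stimulated response elements, while the interferon gamma pathway acts through gamma-activated sites. The induced genes restrict viruses and intracellular microbes, and some of them feed back on the signal. In the thymus, epithelial cells are known to make and to respond to interferons without infection.

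The DNA elements bound by these factors are shown for a selection of the genes. The selection holds some genes that passed no test below and leaves out some that did. Of the 42 genes, 34 had an entry in the RefSeq promoter table (GRCm38.p6, 250 bases before to 50 after the start). The core of the interferon-stimulated response element was searched on both strands as GAAA, any 2 bases and GAAA, which reads TTTC, any 2 bases and TTTC on the other strand. The gamma-activated site was searched as TTCNNNGAA, which is its own reverse complement, and the 2 motifs can overlap. The response element core was found in 22 of the 34 genes, against 3.99% of the 27025 genes in the table and 3.44% of its 32851 promoters. The gamma-activated site was found in 14 of 34, against 9.55% of genes and 8.3% of promoters. Both were found in 10 of 34, against 0.54% of genes. A match describes letters in a window and is not measured binding. The windows are written 5′ to 3′ on the gene's strand with the matches in capitals. The first 5 carry the response element core and belong to a leading antiviral gene, the ubiquitin-like modifier of the system, and 3 genes that differed between subsets or library sets.
Ifit1: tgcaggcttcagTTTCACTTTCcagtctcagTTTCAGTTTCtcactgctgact
Isg15: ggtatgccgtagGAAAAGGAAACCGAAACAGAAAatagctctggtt
Oas1a: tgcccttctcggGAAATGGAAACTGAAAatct
Phf11b: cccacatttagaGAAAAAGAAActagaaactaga
Gbp2: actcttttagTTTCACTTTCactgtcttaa
They lie at chr19:34640773-34640825 (plus strand), chr4:156200863-156200908 (minus), chr5:120907526-120907557 (minus), chr14:59341359-59341392 (minus) and chr3:142620594-142620623 (plus), in that order.

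Among the 7 immunity-related GTPases, which act on the vacuoles of intracellular pathogens, the layouts differed. Irgm1 had the response element core 30 and 24 bases before the start and no gamma-activated site. In 4 others a gamma-activated site stood 2 bases before the response element core.
Tgtp1: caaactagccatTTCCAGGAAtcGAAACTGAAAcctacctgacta
Tgtp2: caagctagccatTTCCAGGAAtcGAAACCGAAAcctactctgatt
Igtp: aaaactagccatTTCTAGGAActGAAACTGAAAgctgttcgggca
Irgm2: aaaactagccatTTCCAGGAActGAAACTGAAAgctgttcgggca
They lie at chr11:48992302-48992346 and chr11:49064261-49064305 (minus strand) and at chr11:58199499-58199543 and chr11:58214890-58214934 (plus strand). The Igtp and Irgm2 windows shared 44 of 45 bases, and the Tgtp1 and Tgtp2 windows 37 of 45. A gamma-activated site without the response element core stood before Irf1, an interferon-induced transcription factor, and before Isg20, an RNA exonuclease.
Irf1: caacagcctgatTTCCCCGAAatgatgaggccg
Isg20: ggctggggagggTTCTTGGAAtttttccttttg
These lie at chr11:53769912-53769944 and chr7:78913339-78913371, both on the plus strand. Neither motif was found in the windows of Oasl2, Irf7 and Ifi47. Usp18, Mx1, Mx2, Dhx58, Zbp1, Iigp1, Rtp4 and Parp14 had no entry.

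The libraries held 3217251 to 7068077 counts each. Median Ski counts were 92 in cTEC, 95.5 in MHCII-low and 50.5 in MHCII-high Control libraries, and 40, 36 and 33 in KO, with overlapping ranges. In Ski flox Control they were 19, 143 and 33, so the cTEC median was below that of KO and the MHCII-high median equalled it, and the labels do not say which exons were deleted. The summed level of 8 cTEC markers was 1648 to 16338 CPM (counts per 1000000 counts of the scaled library) in the cTEC Control libraries, while cTEC KO replicate 5 had 487 CPM. These markers were not absent from mTEC, where they reached 2104 CPM in MHCII-low KO, 2208 in MHCII-high Control, 2688 in MHCII-high KO and 2826 CPM in MHCII-high Ski flox Control. The 6 mTEC markers summed to 863 to 2991 CPM over the mTEC Control and KO libraries, against 141 to 704 CPM over the cTEC ones. The MHCII-low Ski flox Control libraries had 407 and 809.8 CPM, the first within the cTEC range. The 6 markers of mature mTEC summed to 1748 to 2639 CPM in MHCII-high mTEC and reached 1534 CPM in cTEC Control and 2034 CPM in cTEC KO. In MHCII-low mTEC they summed to 213 to 1299 CPM in Control and 335 to 1273 CPM in KO. The MHCII-low Ski flox Control libraries had 1748 and 2055 CPM, at the lower edge of and within the MHCII-high range. All 10 markers of T cells and thymocytes had counts in cTEC, where they summed to 1331 to 4625 CPM in Control and 182 to 3105 CPM in KO. In MHCII-low mTEC they summed to 89.7 to 2664 and 76.7 to 3310 CPM, and in MHCII-high mTEC to 50.1 to 803 and 11.8 to 1108 CPM. The libraries also form a lower-numbered set of 19 and a higher-numbered set of 21 by their library number, a division that no label names.

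Per kilobase of exon, the most abundant member over all libraries was Ifitm3, a membrane protein that blocks virus entry, with a mean level of 1332 CPM per kilobase. Bst2, which tethers budding virus to the cell, followed at 264, then Phf11b at 231, Usp18, which removes ISG15 from proteins and damps receptor signalling, at 184, and Irf1 at 165. The lowest mean levels were those of Gbp5 at 6.21, the nucleotide kinase Cmpk2 at 5.77 and Mx2 at 4.79 CPM per kilobase. In the other families Ifit1 had 84.1, Gbp2 72.9, Oasl2 62.8, Irgm1 43.5, Mx1 32.8 and the nucleic acid sensor Zbp1 25.1 CPM per kilobase. The list was expressed without any stimulus named in the labels: Mx2 had counts in 30 of the 40 libraries and every other member in at least 36.

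**Figure D1:**
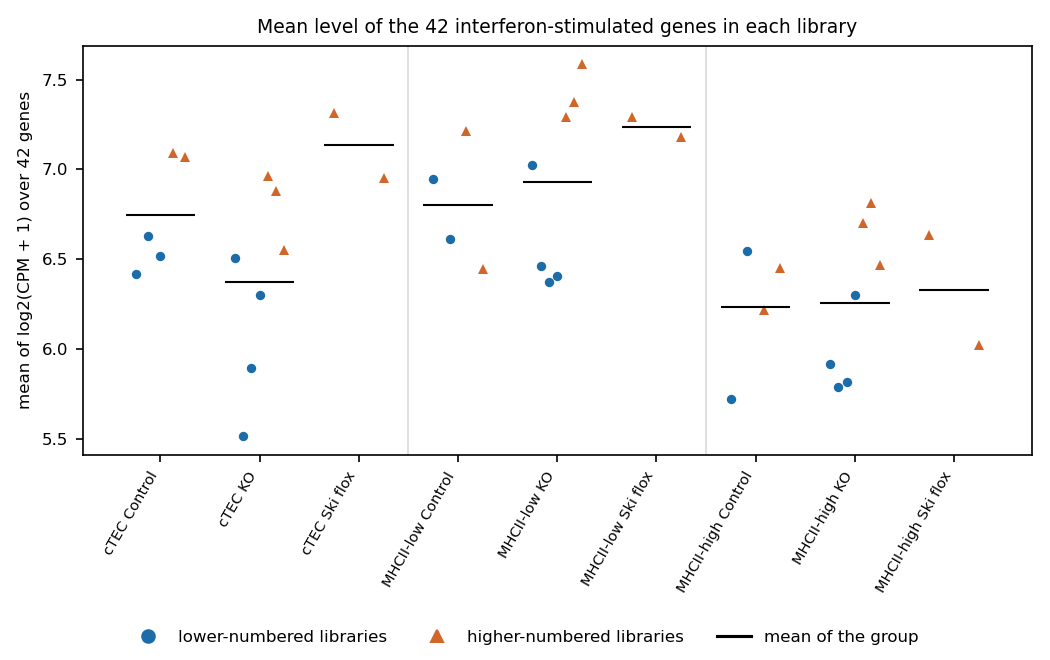
Each point is 1 library, with the mean of log2(CPM + 1) over the 42 genes on the vertical axis and the 9 groups on the horizontal axis, a line at each group mean, and the point shape marking the library set. The group means lie between 6.23 and 7.24, and the MHCII-high mTEC mean is the lowest of the 3 subsets in each genotype.

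The mean of log2(CPM + 1) over the 42 genes was 6.75 ± 0.31 (SD, n = 5) in cTEC Control, 6.80 ± 0.34 (n = 4) in MHCII-low Control and 6.23 ± 0.37 (n = 4) in MHCII-high Control. In KO libraries it was 6.37 ± 0.52, 6.93 ± 0.51 and 6.26 ± 0.43 (n = 7 each). In Ski flox Control libraries it was 7.13 ± 0.26, 7.24 ± 0.08 and 6.33 ± 0.43 (n = 2 each). The ranges of Control and KO overlapped in every subset. All Ski flox Control libraries belong to the higher-numbered set. Within that set the mean was 7.08, 6.83 and 6.33 in the cTEC, MHCII-low and MHCII-high Control libraries (n = 2 each) and 6.80, 7.42 and 6.66 in the KO ones (n = 3 each).

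Isg20 and Tgtp1 were lower in MHCII-high mTEC than in cTEC, in Control as well as in KO libraries. Isg20 (chr7:78913424-78920396, plus strand, GRCm38) stood at 1036, 209, 404, 340.2 and 160.1 CPM in the cTEC Control libraries, and at 55.0, 103, 103 and 134 CPM in the MHCII-high Control libraries. In KO it was 171, 387 and 605 CPM (lowest, median and highest) in cTEC and 36.6, 94.4 and 148 CPM in MHCII-high mTEC. Every cTEC library was above every MHCII-high library of its genotype. The fitted level was 4.36 times as high in cTEC in Control (log2 difference −2.12, SE 0.50, edgeR quasi-likelihood test with Benjamini-Hochberg adjusted p = 0.0296) and 4.41 times as high in KO (−2.14, SE 0.39, edgeR adjusted p = 0.00103).

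Tgtp1 (chr11:48985327-48994172, minus strand), an immunity-related GTPase, was 183, 83.9, 87.9, 134 and 116 CPM in cTEC Control and 5.48, 28.5, 29.6 and 34.7 CPM in MHCII-high Control. In KO it was 89.3, 114 and 172 CPM in cTEC and 9.11, 53.8 and 72.9 CPM in MHCII-high mTEC. The groups did not overlap in either genotype, and in KO no other member besides these was without overlap in the lower direction (2 of 42, where 0.321% of all genes were). The log2 difference was −2.30 (SE 0.55, edgeR adjusted p = 0.0309) in Control and −1.47 (SE 0.41, edgeR adjusted p = 0.0206) in KO. Tgtp1 and Tgtp2 are near-identical copies, so the split of reads between them is uncertain. The log2 difference of Tgtp2 was −0.79 (SE 0.51, edgeR adjusted p = 0.415) in Control and 0.82 (SE 0.40, edgeR adjusted p = 0.151) in KO.

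**Figure D2:**
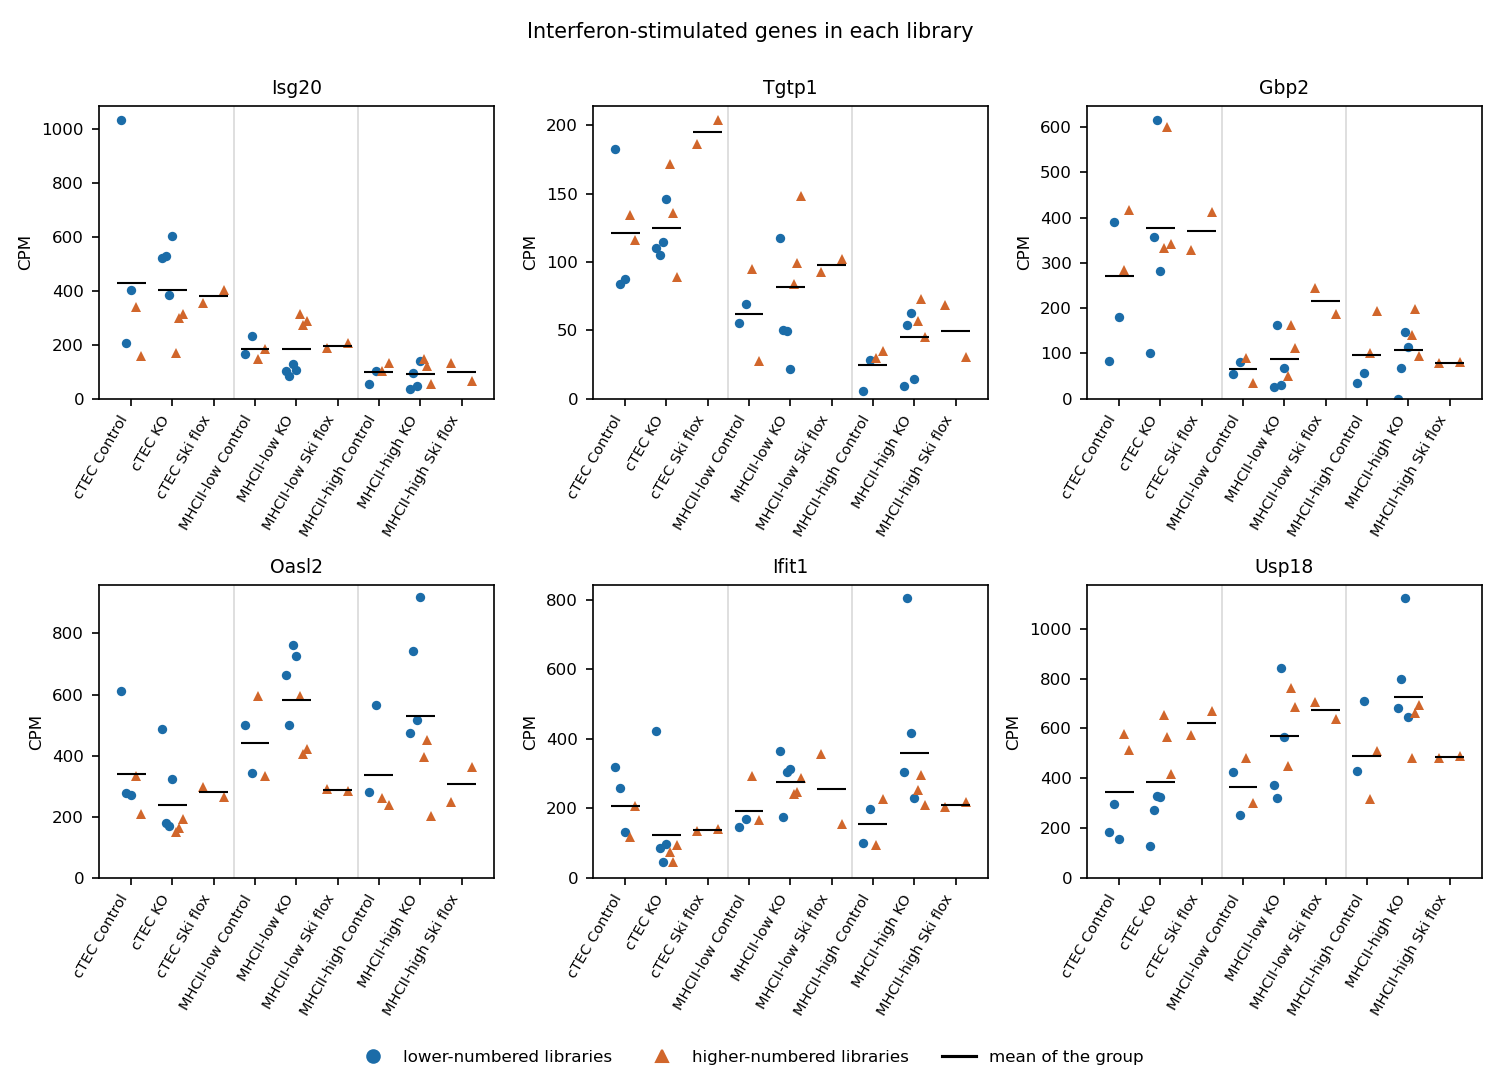
Each panel shows 1 gene in CPM, with 1 point per library and the groups on the horizontal axis. Isg20 and Tgtp1 are higher in every cTEC Control and KO library than in any MHCII-high mTEC library of the same genotype, while Gbp2, Oasl2, Ifit1 and Usp18 overlap between these subsets. Lines mark group means, and the point shape marks the library set.

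In Control libraries these were the members past the threshold between MHCII-high mTEC and cTEC: 2 of 42 lower and 0 higher, where 0.0434% of all tested genes were lower and 1.07% higher. The ranges of 5 members did not overlap, all lower in MHCII-high mTEC (1.81% of all genes). Besides Isg20 and Tgtp1 these were Irgm1, Ifi44 and Irf9, the DNA-binding subunit of the type I interferon complex. Irf1 had 425 ± 189 CPM (n = 4) in MHCII-high mTEC and 929 ± 253 CPM (n = 5) in cTEC (log2 difference −1.13, SE 0.32, edgeR adjusted p = 0.0647). Ifi44 (log2 difference −1.65, edgeR adjusted p = 0.107) and Irgm1 (−1.31, edgeR adjusted p = 0.109) also did not pass. The median log2 difference over the 42 genes was −0.58, against 0.25 over all tested genes.

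The Control calls depended on single libraries. Both were lost without cTEC Control replicate 1 or 4, or without MHCII-high Control replicate 1, 3 or 4. Isg20 was also lost without cTEC Control replicate 3, and Tgtp1 without cTEC Control replicate 5.

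In KO libraries 8 members passed between MHCII-high mTEC and cTEC, 4 lower and 4 higher, where 1.82% and 12.9% of all tested genes passed. Besides Isg20 and Tgtp1, the lower ones were Gbp2 and Irgm1. Gbp2 (chr3:142620602-142638008, plus strand), a guanylate-binding protein that coats pathogen vacuoles, was 101, 341 and 615 CPM in cTEC KO and 0, 113 and 197 CPM in MHCII-high KO. The groups overlapped, with 3 of 7 MHCII-high libraries below every cTEC library (log2 difference −1.79, SE 0.61, edgeR adjusted p = 0.0439). Irgm1, which regulates other immunity-related GTPases, had 122 ± 57.4 CPM in MHCII-high KO and 281 ± 170 CPM in cTEC KO (n = 7 each, log2 difference −1.20, SE 0.35, edgeR adjusted p = 0.0244).

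The 4 higher members were Ifit1, Oasl2, Usp18 and Ifi47. Ifit1 (chr19:34640871-34650009, plus strand), which binds viral RNA that lacks features of the cellular cap, was 45.2, 85.5 and 424 CPM in cTEC KO and 210.4, 295 and 804 CPM in MHCII-high KO. The value of 424 CPM belonged to cTEC KO replicate 1, the library high in fibroblast markers. The other 6 cTEC libraries were below every MHCII-high library. The log2 difference was 1.54 (SE 0.39, edgeR adjusted p = 0.0126).

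Oasl2 (chr5:114896936-114912234, plus strand), of the oligoadenylate synthetase family, was 151, 178 and 486 CPM in cTEC KO and 201, 474 and 920 CPM in MHCII-high KO. The groups overlapped, with 3 of 7 MHCII-high libraries above every cTEC library (log2 difference 1.16, SE 0.29, edgeR adjusted p = 0.0125). Usp18 (chr6:121245906-121270917, plus strand) was 126, 329 and 653 CPM in cTEC KO and 480, 683 and 1125 CPM in MHCII-high KO (log2 difference 0.92, SE 0.30, edgeR adjusted p = 0.0358). Ifi47 (chr11:49076587-49096974, plus strand), an immunity-related GTPase, was 129.7, 198 and 234 CPM in cTEC KO and 189, 321 and 473 CPM in MHCII-high KO (log2 difference 0.80, SE 0.23, edgeR adjusted p = 0.0231). For Usp18 and Ifi47, 5 of 7 MHCII-high libraries were above every cTEC library. The median log2 difference over the 42 genes was −0.12, against 0.28 over all tested genes. By role, the differences were positive for all 3 IFIT and all 3 OAS members, and negative for all 4 transcription factors, both Mx genes, all 4 guanylate-binding proteins and the 7 other interferon-stimulated genes. Most of these did not pass, and several lay near 0, where the median SE over the 42 genes was 0.43. The lowest IFIT difference was 0.03. The negative differences nearest to 0 were −0.003 for the transcription factors and −0.08 for both the Mx and the other genes. The remaining 4 roles held both signs.

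Isg20, Tgtp1, Ifit1, Oasl2 and Ifi47 passed in all 14 fits that each left out 1 of these KO libraries, including the fit without cTEC KO replicate 5, the library low in cTEC markers. With all 42 libraries, however, 3 members passed (Isg20, Tgtp1 and Ifit1, where 16.8% of all genes did), and with only these 2 groups in the fit 1 did (Isg20, 3.73%). Irgm1 passed in 13 and was lost without cTEC KO replicate 1. Usp18 passed in 9 and was lost without cTEC KO replicate 1, 2, 3 or 4 or MHCII-high KO replicate 3. Gbp2 passed in 3, which were those without replicate 1 of cTEC KO or without replicate 1 or 6 of MHCII-high KO.

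Markers of T cells differed between these subsets, so the fit was repeated with their summed level as a covariate. Isg20 (log2 difference −1.91, edgeR adjusted p = 0.00682), Tgtp1 (−1.39, edgeR adjusted p = 0.0488) and Ifit1 (1.54, edgeR adjusted p = 0.0323) still passed in KO, as 3 of 42 members and 10.4% of all genes, and the other 5 did not. Their differences were then −1.75 for Gbp2, −0.94 for Irgm1, 0.93 for Oasl2, 0.83 for Usp18 and 0.64 for Ifi47, with the signs unchanged and edgeR adjusted p from 0.0616 to 0.103. With markers of myeloid and dendritic cells as the covariate, all 8 passed, among 10 of 42 members (17.0% of all genes). In Control none passed (0.395% of all genes), with T cell markers as the covariate, where Isg20 had −1.83 (edgeR adjusted p = 0.0955) and Tgtp1 −2.21 (edgeR adjusted p = 0.0721). In cTEC KO replicate 2, which had the lowest T cell marker sum of the cTEC Control and KO libraries (182 CPM), Isg20 was at 531 CPM and Tgtp1 at 105 CPM. B cell markers summed to 1079 CPM and myeloid and dendritic cell markers to 1347 CPM in that library. The part of the B cell markers in the result was not tested, and 1 library cannot tell the sources of the transcripts apart. Fewer cells of a type and less RNA per cell cannot be told apart in bulk libraries.

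Within the library sets, 2 members passed in the lower-numbered (1.03% of all genes) and 3 in the higher-numbered libraries (2.76%) between MHCII-high mTEC and cTEC in KO. These were Isg20 and Usp18, and then Ifit1 together with Ifitm3 and Phf11b, which are not among the 8. Isg20 differed by −2.67 (edgeR adjusted p = 0.021) in the lower-numbered and −1.32 (edgeR adjusted p = 0.064) in the higher-numbered set. Ifit1 differed by 1.41 (edgeR adjusted p = 0.197) and 1.78 (edgeR adjusted p = 0.0221). Usp18 differed by 1.64 (edgeR adjusted p = 0.0414) in the lower-numbered and 0.13 (edgeR adjusted p = 0.857) in the higher-numbered set. Ifi47 showed the same layout, with 1.16 (edgeR adjusted p = 0.0773) and 0.13 (edgeR adjusted p = 0.837), so both values were near 0 in the higher-numbered libraries. The signs were the same in both sets for Tgtp1 (−1.78 and −1.22), Oasl2 (1.198 and 1.02), Irgm1 (−1.82 and −0.56) and Gbp2 (−2.04 and −1.60).

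**Figure D3:**
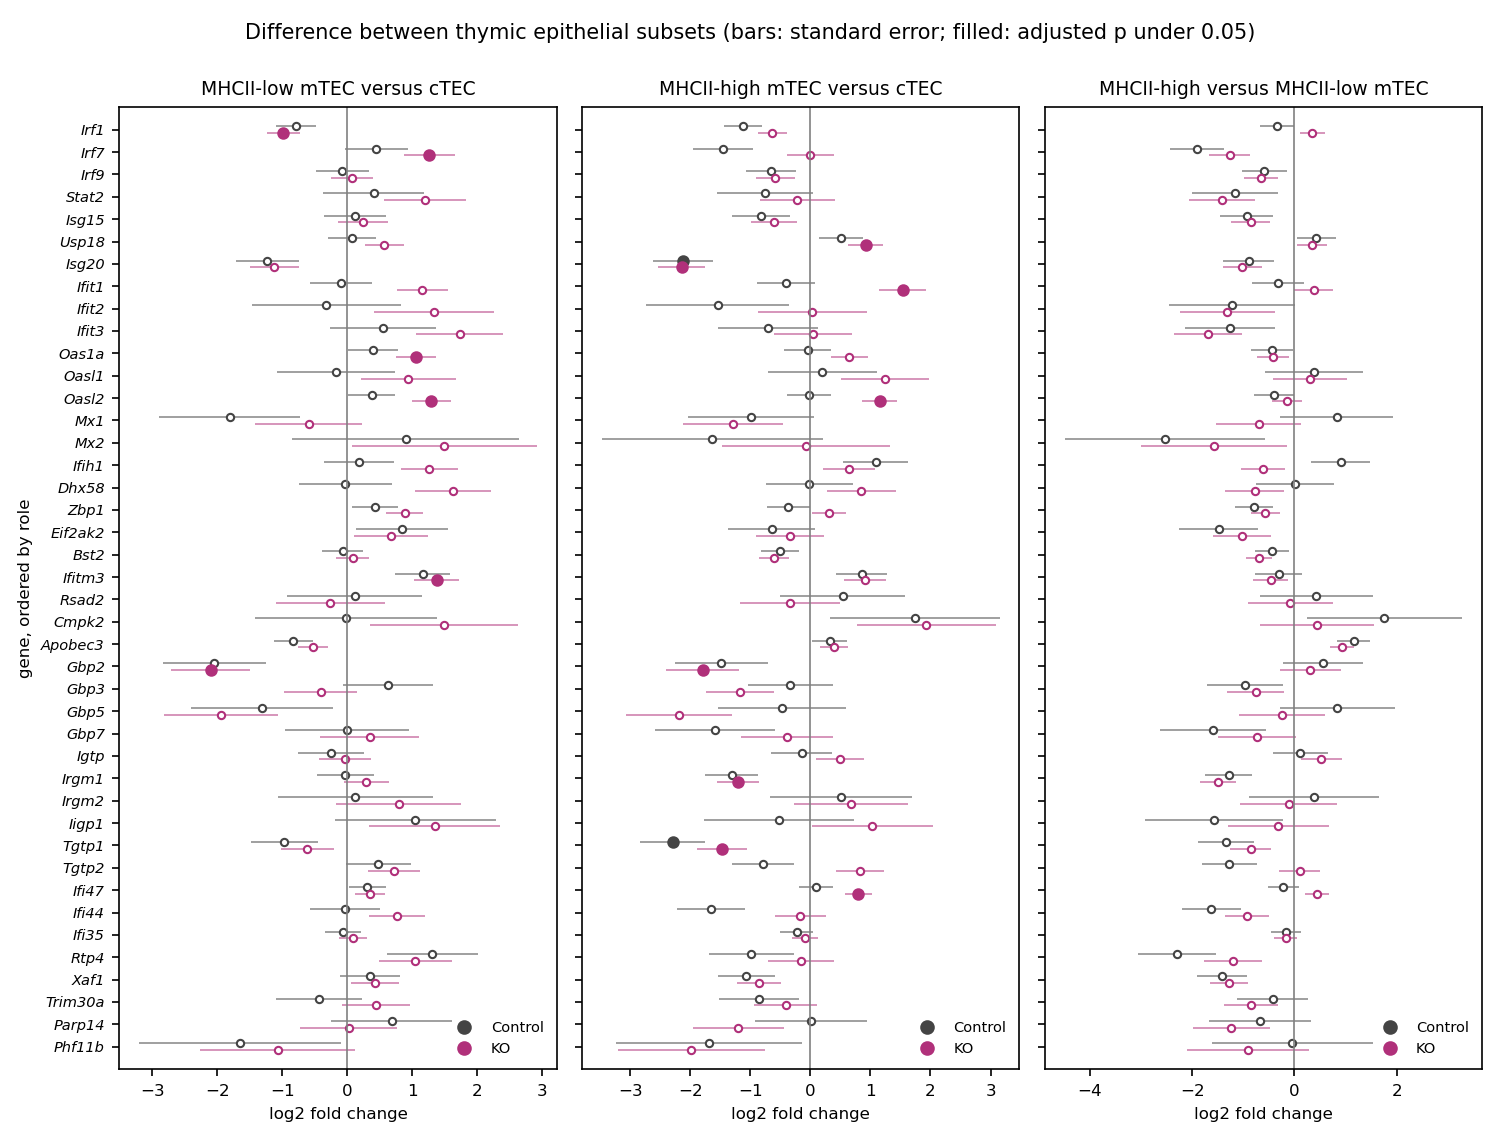
The 42 genes are shown in rows with their log2 fold change between subsets and its standard error, for each pair of subsets, in Control and KO libraries, filled where the adjusted p was under 0.05. Between MHCII-high mTEC and cTEC, Isg20 and Tgtp1 lie at −1.47 or below in both genotypes, while Ifit1, Oasl2, Usp18 and Ifi47 lie between 0.80 and 1.54 in KO.

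Between MHCII-low mTEC and cTEC, 6 of 42 members passed in KO, 4 higher and 2 lower, where 5.19% and 0.49% of all tested genes passed. Oasl2 was 407, 596 and 762 CPM in MHCII-low KO, with 5 of 7 libraries above every cTEC KO library (log2 difference 1.30, SE 0.30, edgeR adjusted p = 0.0101). Ifitm3 had 1297 ± 660 CPM against 499 ± 450 CPM in cTEC (n = 7 each, log2 difference 1.38, SE 0.35, edgeR adjusted p = 0.0191). A single cTEC KO library, replicate 1, reached 1476 CPM of Ifitm3, and 1 of 7 MHCII-low libraries was above it.

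Irf7 (chr7:141262706-141266481, minus strand), a factor that amplifies type I interferon production, was 81.9, 213 and 420 CPM in cTEC KO and 150, 464 and 1103 CPM in MHCII-low KO (log2 difference 1.26, SE 0.39, edgeR adjusted p = 0.0496). Oas1a, which makes the messenger that activates RNase L, had 180.0 ± 78.7 CPM against 86.4 ± 34.9 CPM in cTEC KO (log2 difference 1.06, SE 0.31, edgeR adjusted p = 0.041). Of the MHCII-low libraries, 4 of 7 for each gene were above every cTEC library. All 6 genes listed as markers of plasmacytoid dendritic cells had counts in both groups. Their median sum was 121 CPM in cTEC KO (0 to 334) and 291 CPM in MHCII-low KO (19.1 to 488). In MHCII-low KO this sum was lowest in replicate 1 and highest in replicate 7. The sum of the T cell markers was too (76.7 and 3310 CPM), while replicate 4 had 291 CPM with 113 CPM of T cell markers. The sum of these 6 genes does not tell which cells the transcripts came from. The 14 markers of myeloid and dendritic cells summed to 275 to 3184 CPM (median 1760) and 781 to 12939.7 CPM (median 2895). With the myeloid markers as a covariate 7 members passed (9.05% of all genes), and Irf7 (1.06, edgeR adjusted p = 0.0581) and Oas1a (0.89, edgeR adjusted p = 0.0602) did not. The part of the plasmacytoid dendritic cell markers in these results was not tested.

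The lower members were Gbp2 and Irf1. Gbp2 was 26.8, 67.2 and 162 CPM in MHCII-low KO, with 4 of 7 libraries below every cTEC KO library (log2 difference −2.10, SE 0.61, edgeR adjusted p = 0.0392). Irf1 had 462 ± 106 CPM against 913 ± 286 CPM in cTEC KO, with 3 of 7 libraries below every cTEC library (log2 difference −0.98, SE 0.25, edgeR adjusted p = 0.0192). Irf1 and Oasl2 passed in all 14 fits that left out 1 library and Ifitm3 in 13, lost without MHCII-low KO replicate 1. All 3 lost their calls with all 42 libraries (Gbp2 alone passed, where 6.8% of all genes did), in the lower-numbered libraries (0 members, 0.189%) and with only these 2 groups in the fit (0 members, 0.447%). Gbp2 passed in 6, Oas1a in 5 and Irf7 in 2 of the 14, so for these a single library of either subset often decided the call. Gbp2 was lost without cTEC KO replicate 3, 4, 6 or 7 or MHCII-low KO replicate 1, 3, 4 or 5. Oas1a was lost without cTEC KO replicate 1, 2, 3, 4 or 7 or MHCII-low KO replicate 4, 5, 6 or 7. Irf7 was kept only without cTEC KO replicate 6 or MHCII-low KO replicate 2. The median log2 difference over the 42 genes was 0.51, against 0.25 over all tested genes.

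In Control libraries none of the 42 passed between MHCII-low mTEC and cTEC, where 0.773% of all tested genes did. At an unadjusted p under 0.05, edgeR placed 1 member higher and 4 lower (17.9% of all genes had such a p), and DESeq2 and limma voom called 1 member each after adjustment (7.88% and 4.51% of all genes). Gbp2 had 65.5 ± 24.7 CPM (n = 4) against 271 ± 141 CPM in cTEC (n = 5, log2 difference −2.05, SE 0.79, edgeR adjusted p = 0.173). Ifitm3 had 1337 ± 610 against 598 ± 284 CPM (log2 difference 1.16, SE 0.43, edgeR adjusted p = 0.162). Apobec3, a DNA-editing enzyme that restricts retroviruses, had 393 ± 134 against 700.2 ± 274 CPM (log2 difference −0.83, SE 0.30, edgeR adjusted p = 0.155).

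Control and KO libraries share no sample, so each genotype measured the subset differences separately. For MHCII-high mTEC against cTEC, 30 of the 42 genes had the same sign in both genotypes, 22 of them negative, where 79.5% of all tested genes had the same sign. For MHCII-low mTEC against cTEC, 28 of 42 had the same sign, where 71.9% of all genes did. The members that were higher in MHCII-high KO libraries had other values in Control: Ifit1 had a log2 difference of −0.41 (SE 0.48), Oasl2 −0.02 (SE 0.36), Usp18 0.51 (SE 0.37) and Ifi47 0.09 (SE 0.29). The test of whether these differences depended on genotype is given with the KO effects.

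Between the mTEC subsets no member passed in either genotype, where edgeR called 0.0% of all tested genes in Control and 0.0174% in KO. At an unadjusted p under 0.05, edgeR placed 1 member higher and 8 lower in MHCII-high cells in Control (7.47% of all genes in either direction), and 1 higher and 12 lower in KO (17.5%). DESeq2 called 2 members in Control (1.02% of all genes with an adjusted p) and 4 in KO (2.8%), and limma voom called 0 in both (0.343% and 2.76% of all genes). The median log2 difference over the 42 genes was −0.44 in Control and −0.67 in KO, against 0.04 and 0.00 over all tested genes. Of the 42 genes, 30 had a negative difference in Control and 32 in KO.

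Apobec3 had the opposite sign. It had 875 ± 161 CPM in MHCII-high and 393 ± 134 CPM in MHCII-low Control (n = 4 each) and the groups did not overlap (log2 difference 1.15, SE 0.32, edgeR adjusted p = 0.661). In KO it had 883 ± 210 against 464 ± 150 CPM (n = 7 each), with 6 of 7 MHCII-high libraries above every MHCII-low library (log2 difference 0.93, SE 0.24, edgeR adjusted p = 0.134). It was the 1 member without overlap in the higher direction in Control, where 2.57% of all genes had none.

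In the lower direction 6 members did not overlap in Control, where 1.38% of all genes did not: Irf7, Isg15, Isg20, the translation-blocking kinase Eif2ak2, Ifi44 and Rtp4. Irf7 had 141 ± 82.9 CPM in MHCII-high and 525.7 ± 119.8 CPM in MHCII-low Control (log2 difference −1.90, SE 0.53, edgeR adjusted p = 0.661). Rtp4 had 58.4 ± 11.6 and 287 ± 99.1 CPM (log2 difference −2.29, SE 0.77, edgeR adjusted p = 0.661). In KO, Irgm1 had the smallest p, with 122 ± 57.4 against 346 ± 144 CPM (log2 difference −1.50, SE 0.35, edgeR adjusted p = 0.128), and Xaf1, which is linked to apoptosis, had 82.3 ± 29.7 against 199 ± 129 CPM (−1.28, SE 0.37, edgeR adjusted p = 0.163).

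Between KO and Control no member passed in any subset, and edgeR called 0.0% of all tested genes in each of the 3 comparisons. At an unadjusted p under 0.05 there were 0 members in cTEC, 0 in MHCII-low and 3 in MHCII-high mTEC, where 10.6%, 7.11% and 6.88% of all tested genes had such a p. DESeq2 and limma voom also called 0 members in each subset, where in cTEC, MHCII-low and MHCII-high mTEC DESeq2 called 2.53%, 1.01% and 0.644% of all genes and limma voom 0.0434%, 0.0477% and 0.0608%. The median log2 difference over the 42 genes was −0.13 in cTEC, 0.24 in MHCII-low and 0.18 in MHCII-high mTEC, against 0.00, 0.00 and −0.04 over all tested genes. A member's SE was 0.47 at the median in cTEC and 0.51 in both mTEC subsets.

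**Figure D4:**
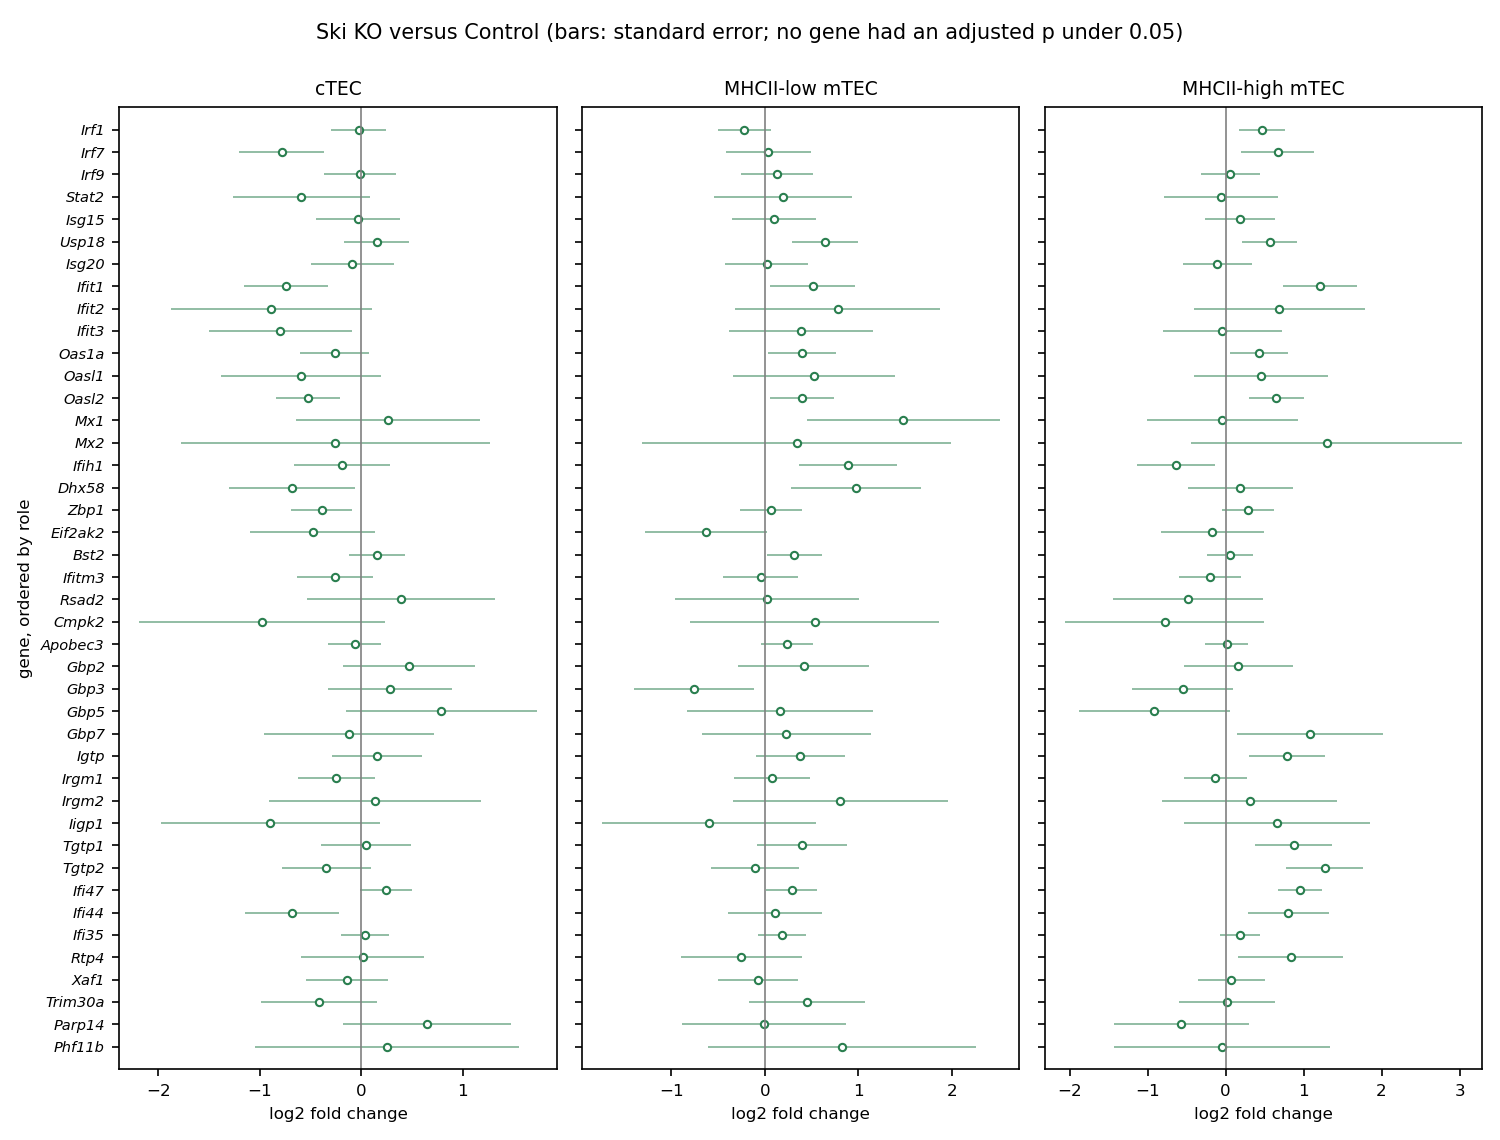
The 42 genes are shown in rows with the log2 fold change of KO against Control in each subset and its standard error. None passed the threshold, and the medians over the genes are −0.13 in cTEC, 0.24 in MHCII-low and 0.18 in MHCII-high mTEC.

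In cTEC the smallest p was that of Irf7. It stood at 125, 474, 398, 671 and 259 CPM in the Control libraries and at 81.9, 142, 159, 213, 257, 295 and 420 CPM over the KO libraries. The ranges overlapped, and 1 KO library was lower than all Control libraries (log2 difference −0.78, SE 0.42, edgeR adjusted p = 0.564). Ifit1 had 124 ± 134 CPM in KO and 206 ± 85.7 CPM in Control (log2 difference −0.74, SE 0.42, edgeR adjusted p = 0.623), and 6 KO libraries were lower than all Control libraries while 1 was higher. Oasl2 had 237 ± 124 and 341 ± 158 CPM (log2 difference −0.52, SE 0.32, edgeR adjusted p = 0.721).

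In MHCII-low mTEC it was that of Usp18. It stood at 425, 251, 482 and 301 CPM in the Control libraries and at 321, 372, 449, 566, 687, 764 and 841 CPM over the KO libraries. The 4 highest KO libraries were above every Control library (log2 difference 0.65, SE 0.35, edgeR adjusted p = 0.746). Ifih1, a sensor of double-stranded RNA, had 95.6 ± 33.1 CPM in KO and 51.6 ± 29.6 CPM in Control (log2 difference 0.89, SE 0.52, edgeR adjusted p = 0.804). Mx1, a GTPase that traps viral components, had 115 ± 79.5 and 41.3 ± 12.3 CPM (log2 difference 1.48, SE 1.03, edgeR adjusted p = 0.945), and with both control genotypes pooled its difference was −0.17.

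In MHCII-high mTEC it was that of Ifi47. It stood at 198, 218, 134 and 134 CPM in the Control libraries and at 189, 230.4, 238, 321, 414, 449 and 473 CPM over the KO libraries. In KO 6 of 7 libraries were above every Control library (log2 difference 0.95, SE 0.28, edgeR adjusted p = 0.66, unadjusted p = 0.00165). The difference was 0.96 within the lower-numbered and 0.76 within the higher-numbered libraries. Ifit1 had 359 ± 208 CPM in KO and 155 ± 68.1 CPM in Control (log2 difference 1.21, SE 0.47), and Tgtp2 108 ± 58.7 and 44.7 ± 27.2 CPM (1.27, SE 0.50), both with an edgeR adjusted p of 0.66.

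The interaction asks whether the KO effect differed between subsets, which is also whether the subset difference depended on genotype. No member passed in any of the 3 interactions, where edgeR called 0.0% of all tested genes and DESeq2 and limma voom called 0 members. For MHCII-high mTEC minus cTEC, MHCII-low mTEC minus cTEC and MHCII-high minus MHCII-low, DESeq2 called 1.67%, 1.98% and 0.691% of all genes and limma voom 0.0304%, 0.0174% and 0.0%. At an unadjusted p under 0.05 there were 5 members for MHCII-high mTEC minus cTEC (all positive, against 7.26% of all genes), 0 for MHCII-low mTEC minus cTEC (7.38%), and 1 positive and 1 negative for MHCII-high minus MHCII-low (6.17%). Ifit1 had the smallest p, with a KO effect 1.95 higher on the log2 scale in MHCII-high mTEC than in cTEC (SE 0.63, edgeR adjusted p = 0.455, unadjusted p = 0.0037). For Oasl2 this value was 1.17 (SE 0.47, edgeR adjusted p = 0.505) and for Tgtp2 1.62 (SE 0.65, edgeR adjusted p = 0.505). For MHCII-low mTEC minus cTEC, Ifit1 had 1.25, Oasl2 0.92 and the RNA sensor regulator Dhx58 1.65 (edgeR adjusted p = 0.679, 0.71 and 0.815). For MHCII-high minus MHCII-low, Ifih1 had −1.53, Tgtp2 1.38 and Ifi47 0.66 (edgeR adjusted p = 0.76, 0.795 and 0.956).

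Against the 2 Ski flox Control libraries of each subset, KO also passed for no member, where edgeR called 0.0% of all tested genes. At an unadjusted p under 0.05 there were 2 lower members in cTEC, 1 higher in MHCII-low mTEC and 0 in MHCII-high mTEC, against 4.93%, 6.12% and 3.15% of all genes. DESeq2 called 0 members as well (5.47%, 5.4% and 0.463% of all genes), and so did limma voom (0.104%, 0.382% and 0.204%). Within the higher-numbered libraries, which hold all Ski flox Control ones, edgeR again called 0 members and 0.0% of all genes. At an unadjusted p under 0.05 there were then 4, 4 and 0 members, where 5.0%, 8.58% and 2.68% of all genes had such a p, and the list's median was −0.21, 0.13 and 0.26. Over both sets the lower members in cTEC were Bst2, with 250 ± 101 CPM in KO and 435 ± 52.9 CPM in Ski flox Control (n = 2, log2 difference −0.80, SE 0.36, edgeR adjusted p = 0.918), and Zbp1 (−0.86, SE 0.40, edgeR adjusted p = 0.918). Oas1a had −0.76 (SE 0.44, edgeR adjusted p = 0.918). In MHCII-low mTEC, Oasl2 was above both Ski flox Control libraries (291 and 283 CPM) in all 7 KO libraries (log2 difference 1.02, SE 0.47, edgeR adjusted p = 0.686). Bst2 there had −0.72 (SE 0.36) and Dhx58 1.61 (SE 0.96), each with an edgeR adjusted p of 0.686.

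In MHCII-high mTEC, Tgtp2 was above both Ski flox Control libraries (43.1 and 43.9 CPM) in all 7 KO libraries (log2 difference 1.31, SE 0.66, edgeR adjusted p = 1), while Oasl2 had 0.79 and Apobec3 0.62. The groups did not overlap for 1 member in cTEC (Tgtp1 lower, where 1.84% of all genes were), for 2 higher and 4 lower in MHCII-low mTEC (2.18% and 4.12%) and for 2 higher in MHCII-high mTEC (0.608%). In MHCII-low mTEC the median of all tested genes was itself at 0.40, and that of the 42 genes at −0.10.

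The boundary of the library sets was chosen after correlations between these libraries were seen, so some separation across it is built in. With that limit, several members followed the library set within groups of 1 genotype and subset. Phf11b (chr14:59320964-59341351, minus strand) showed this most plainly. In cTEC KO it was 0, 211, 323 and 210.4 CPM in the lower-numbered libraries (replicates 1 to 4) and 749.8, 808 and 682 CPM in the higher-numbered ones (replicates 5 to 7). In MHCII-high KO it was 0, 3.27, 0 and 88.6 CPM and then 198, 275 and 188 CPM. The higher-numbered libraries were thus above all lower-numbered ones in both groups. Phf11b belongs to a set of near-identical copies, so its share of reads is uncertain. It stood apart in this way in 5 of the 6 Control and KO groups, as did Xaf1, and Mx1 did in 4 of 6.

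Over the list, 13 of 42 members had every higher-numbered library above every lower-numbered one in cTEC Control (11.8% of all genes) and 10 in cTEC KO (6.27%). In MHCII-low mTEC there were 4 in Control (12.4%) and 10 in KO (4.03%), and in MHCII-high mTEC 13 (16.6%) and 7 (8.64%). In the other direction there were 2 (8.13%) and 1 (2.46%) in cTEC, 6 (12.5%) and 0 (2.7%) in MHCII-low, and 7 (14.6%) and 6 (1.64%) in MHCII-high mTEC. The 1 member below in cTEC KO was Isg20. The mean of log2(CPM + 1) over the list in KO was 6.80 in higher-numbered and 6.05 in lower-numbered cTEC libraries, 7.42 and 6.57 in MHCII-low, and 6.66 and 5.95 in MHCII-high libraries. In Control it was 7.08 and 6.52 in cTEC, but 6.83 and 6.78 in MHCII-low and 6.33 and 6.14 in MHCII-high libraries. The mean level of the list was thus much closer between the sets in mTEC Control than in KO.

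**Figure D5:**
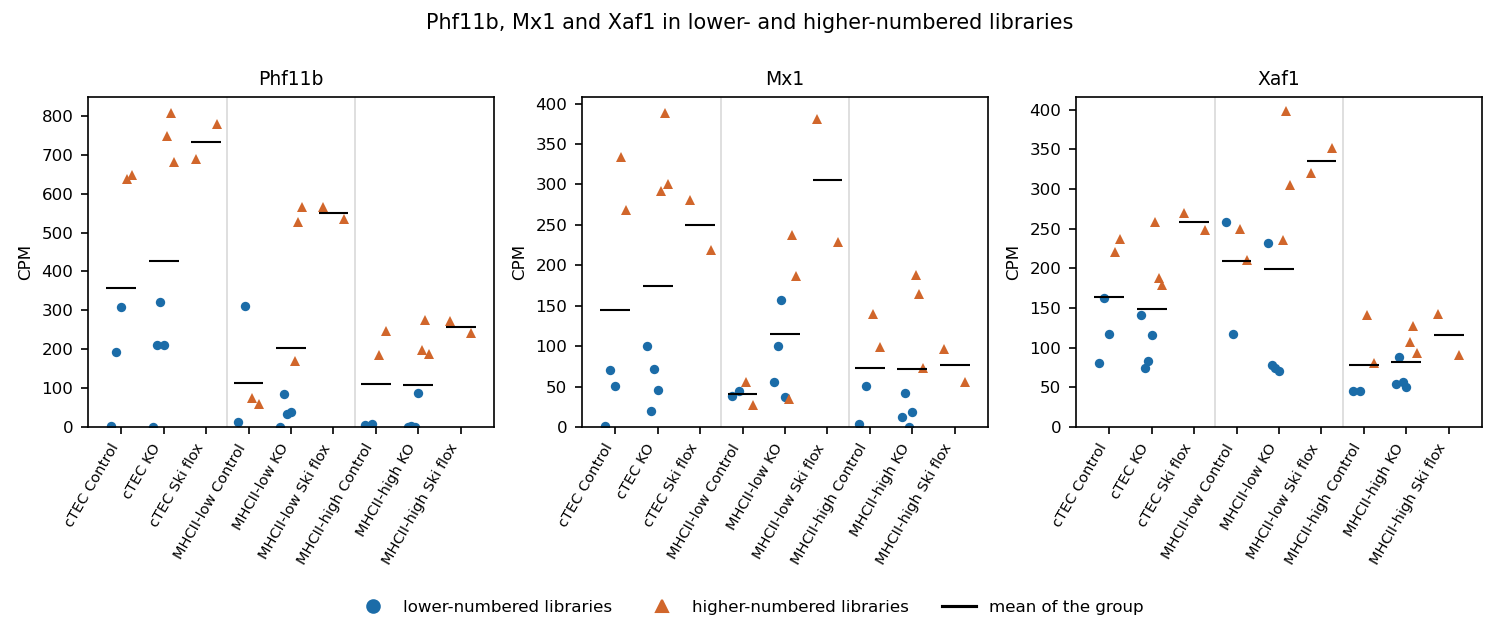
Each point is 1 library, with the CPM of Phf11b, Mx1 or Xaf1 on the vertical axis, the 9 groups on the horizontal axis, a line at each group mean and the point shape marking the library set. In cTEC KO the higher-numbered libraries lie at 682 to 808 CPM of Phf11b, above every lower-numbered library.

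Within the higher-numbered libraries alone, Phf11b was 564.9, 528 and 169 CPM in MHCII-low KO and 74.1 and 60.01 CPM in MHCII-low Control (log2 difference 2.64, SE 0.40, edgeR adjusted p = 0.0212), the 1 member of 42 that passed between KO and Control there (0.0247% of all genes). Over both sets it had 203 ± 241 CPM in KO and 114 ± 133 CPM in Control (log2 difference 0.83, SE 1.43, edgeR adjusted p = 1). Within the lower-numbered libraries alone its difference had the opposite sign (−2.05, SE 2.16, edgeR adjusted p = 1), where the Control libraries had 12.04 and 310.1 CPM.

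The signalling genes upstream of the list were taken from a list of 43, of which 37 were tested. Ligands were scarce. Ifnb1, a type I interferon, had counts in 3 of 40 libraries with 40 counts in all, Ifna1 and Ifna11 had none, and the type II interferon Ifng had counts in 10. The type III interferons Ifnl2 and Ifnl3, which are near-identical copies, had counts in 14 and 11 libraries. Of the receptors, Ifnar1 and Ifngr1 had counts in 39 and Ifnlr1 in 30 libraries.

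Pathway genes passed in 1 of the 15 comparisons, MHCII-high mTEC against cTEC in KO, with 3 of 37 higher and 2 lower, where 12.9% of all tested genes were higher and 1.82% lower. Ifnl3 was listed at 0 in all 7 cTEC KO libraries and had counts in 4 of 7 MHCII-high KO libraries (mean 6.33 CPM, edgeR adjusted p = 0.0421). That mean was 72.9 times a floor of 3 counts over the cTEC group, and the log2 difference ran from 3.61 to 22.2 over the alternatives. Ifnl3 also had no counts in cTEC Control, and in MHCII-low KO it had counts in 2 of 7 libraries (mean 7.16 CPM) without passing. The split of reads between Ifnl3 and its near-identical copy Ifnl2 is uncertain. A value of 0 for Ifnl3 therefore does not show that type III interferon transcripts were absent. Ifngr2, a subunit of the interferon gamma receptor, had 304 ± 106 against 161 ± 63.7 CPM (log2 difference 0.91, SE 0.28, edgeR adjusted p = 0.0309). Tmem173, the adaptor STING that senses cytosolic DNA signals, had 391 ± 137 against 146 ± 81.3 CPM (log2 difference 1.42, SE 0.40, edgeR adjusted p = 0.0202).

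The other receptor subunit went the opposite way. Ifngr1 had 83.2 ± 57.7 CPM in MHCII-high KO and 312 ± 240 CPM in cTEC KO (log2 difference −1.91, SE 0.64, edgeR adjusted p = 0.0427). Tmem173 passed in all 14 fits that left out 1 library, Ifngr2 in 11, Ifngr1 in 6 and Ifnl3 in 5, and none of these 4 passed with T cell markers as a covariate. In Control the same differences were 0.76 for Ifngr2, 0.74 for Tmem173 and −2.09 for Ifngr1, none past the threshold. Between KO and Control, Ifnar1 had −0.54 in cTEC, 0.50 in MHCII-low and −0.30 in MHCII-high mTEC, Ifngr1 0.03, −0.41 and 0.21, and Ifnlr1 −0.02, 0.46 and −0.53, none past the threshold.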

How the data were processed

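RNA from 200 sorted cells per library was amplified as full-length cDNA and made into Nextera XT libraries, per the labels' protocols, which mention neither molecular identifiers nor strand marking. The authors deposited whole-number read counts per gene, made with HTSeq 0.4.1 on GRCm38, with FastQC 0.11.3, Picard 1.134 and SAMtools 1.2 also listed, per the submitters' processing notes. Aligner and annotation: not given in the sources used here. Of 42 libraries, 2 with 82 and 41828 counts were left out under a minimum of 100000.

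The deposited counts were tested with edgeR 4.0.16 (quasi-likelihood test, TMM factors, filterByExpr, R 4.3.3) in 1 fit of 40 libraries in 9 groups, with 15 comparisons and Benjamini-Hochberg adjustment over all 23040 tested genes at 0.05. The biological coefficient of variation was 1.40. The standard errors (SE) given and drawn were worked back from the edgeR test. Each is the size of the log2 difference divided by the square root of the test statistic F. They therefore hold no information beyond the difference and its test. Tables were made with Python 3.11.15, NumPy 2.4.6 and pandas 2.3.3. CPM uses TMM-scaled library sizes, and levels per length use GENCODE exon lengths. Of the 42 genes, 17 share some exon bases with another gene, and counts without strand cannot separate such overlaps. Alternatives were DESeq2 1.42.0, limma 3.58.1 voom, other filters and size factors, single libraries left out, library sets, and marker covariates, the last added after seeing the data. The edgeR procedure was tested on simulated counts. The changes planted there, in cTEC KO only, were larger than any member difference given here, so differences of the reported size were not covered.

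Members, lists and the boundary of the library sets were chosen with earlier results of these data known. In each comparison members past the threshold are named, up to 12, or else the 3 of smallest p, given a median level of 10 CPM or more where it was higher. Values in every library are given for members past the threshold in the most comparisons and for the smallest p of KO against Control, and the most abundant member of each role is given. Pathway genes are named where they pass, and Ifnb1, Ifnar1, Ifngr1 and Ifnlr1 always; 1 pathway gene is counted but not reported here. Members outside this rule were named after their values were seen.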

Additional observations from a re-analysis of the deposited data

Results flagged for a closer look

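Of 48 groups of member values examined for a library far from the others, 2 held one, where chance alone gives about 1 in 20. Isg20 in cTEC Control replicate 1 was 1036 CPM, with a gap to the next library of 0.721 of the range of the 5 libraries. Oasl2 in MHCII-high mTEC Control replicate 3 was 565 CPM, with a gap of 0.871 of the range of the 4 libraries.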

How the results depend on the processing

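Counts of the 42 members past the threshold moved with the tool and the libraries (in brackets, the share of all genes called). For MHCII-low mTEC against cTEC in Control (0) they were 1 with DESeq2 (7.88%), 1 with limma voom (4.51%) and 4 in higher-numbered libraries (3.51%). For MHCII-high mTEC against cTEC in Control (2) they were 6 with DESeq2 (8.69%), 1 with limma voom (8.48%), 1 with all 42 libraries (1.27%), 5 with the library set as a term (2.66%), 4 with detected genes as a covariate (2.33%), and 0 in lower-numbered libraries (0.0199%), in higher-numbered libraries (0.707%) and with T cell markers as a covariate (0.395%). For MHCII-high against MHCII-low mTEC in Control (0) they were 2 with DESeq2 (1.02%) and 1 in higher-numbered libraries (0.559%). For MHCII-low mTEC against cTEC in KO (6) they were 10 with DESeq2 (12.1%), 1 with all 42 libraries (6.8%), 0 in lower-numbered libraries (0.189%) and 0 with only the groups compared (0.447%). For MHCII-high mTEC against cTEC in KO (8) they were 3 with all 42 libraries (16.8%) and 1 with only the groups compared (3.73%). There were 2 in lower-numbered (1.03%) and 3 in higher-numbered libraries (2.76%), and 3 with T cell markers as a covariate (10.4%). More members passed there with myeloid markers (10, 17.0%) or detected genes (12, share not given) as a covariate. With the library set as a term 12 passed (share not given). For MHCII-high against MHCII-low mTEC in KO (0) they were 4 with DESeq2 (2.8%), 1 with detected genes as a covariate (0.0651%) and 2 in higher-numbered libraries (1.12%). For KO against Control in MHCII-low mTEC (0) it was 1 in higher-numbered libraries (0.0247%). Leaving out 1 library gave 0 to 3 for MHCII-high mTEC against cTEC in Control, 3 to 6 for MHCII-low and 6 to 9 for MHCII-high mTEC against cTEC in KO, and 0 to 0 in the other 12 comparisons. The mean log2 level in MHCII-low Ski flox Control (7.24) was 7.11 with RLE size factors and 7.38 with a pseudocount of 10. Of 1436 alternatives for 55 named values, 1280 kept direction and side of the threshold, 134 lost the call, 20 gained it and 2 reversed. Only the named values past the threshold, the 2, 6 and 8 members called above, had a call to lose. Isg20 (MHCII-high mTEC against cTEC in KO) lost it least often, in 1 of 27 alternatives. Irf7 (MHCII-low mTEC against cTEC in KO) lost it most often, in 21 of 27. The first of the 2 reversals was Mx1 for KO against Control in MHCII-low mTEC with both control genotypes pooled (−0.17). The other was the Ifi47 interaction of MHCII-high minus MHCII-low mTEC in higher-numbered libraries (−0.036). The cause was not tested. No paired analysis was made. Library numbers run in consecutive sets of cTEC, MHCII-low and MHCII-high libraries of 1 genotype. The labels carry no replicate numbers that the groups share, and they do not say that such a set came from 1 animal. The tests between subsets therefore took all libraries as separate.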
